A study of Mus musculus with 10 samples.

Results

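The collagen genes were examined in RNA from mouse ovarian follicle cells. Members were all gene symbols of the collagen form (Col, a type number, a, and a chain number), which gave 43 of the 23234 symbols in the expression table. By type, 11 encode chains of fibrillar collagens, 6 encode chains of type IV collagen and 26 encode chains of other types.

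Levels are in FPKM, that is, sequenced fragments scaled by transcript length and by the number of mapped fragments in the library, for 10 libraries of total RNA. Of C57BL/6 mice there were 3 libraries of cumulus cells (the cells around the oocyte) at the age of 2 months, another 3 at the age of 10 months, and 2 libraries of mural granulosa cells (the cells along the wall of the follicle) at the age of 2 months. Cumulus-oocyte complexes, in which the oocyte is still enclosed by its cumulus cells, were represented by 1 library of BDF1 and 1 of DBA/2 mice, both PMSG-primed and 3 weeks old. PMSG and eCG are names of one gonadotropin; the extraction notes mention mural cells of eCG-primed mice, and no source used here states whether the donors of the cumulus cells were primed. A medium containing milrinone, which inhibits phosphodiesterase, is noted for all libraries. Nothing in the labels ties replicates to separate animals, and p-values therefore reflect the spread among these libraries alone.

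Collagens are secreted proteins in which 3 chains wind into a helix. Fibrillar collagens build the cables of connective tissue, and type IV collagen forms the sheet-like network of basement membranes. Other types form beaded filaments (type VI), coat fibrils (types IX and XVI) or sit beside basement membranes (types XV and XVIII). In the follicle, a basement membrane lies between the mural granulosa cells and the theca, the vascularised layer of steroid-making and stromal cells outside it.

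Several collagen genes are neighbours in the genome. In the RefSeq gene order of GRCm38.p6, 8 adjacent pairs consist of collagens, among them Col3a1 and Col5a2 on chromosome 1, Col6a2 and Col6a1 on chromosome 10, and Col4a6 and Col4a5 on chromosome X. The Col4a1 and Col4a2 pair on chromosome 8 is transcribed in opposite directions from start sites so close that their promoter windows, from 250 bases before to 50 bases after the start, overlap by 78 bases. The windows of this pair and of the fibrillar genes Col1a2 and Col3a1 are printed because these 4 genes were among those with the largest differences between groups. They are the RefSeq windows of build GRCm38.p6, chr8:11312777-11313076 (minus strand) for Col4a1, chr8:11312555-11312854 (plus strand) for Col4a2, chr6:4505368-4505667 (plus strand) for Col1a2 and chr1:45311288-45311587 (plus strand) for Col3a1. Capitals mark matches, on either strand, to 3 promoter motifs. The first is TATAAA, known as the TATA box. Another is CCAAT, the CCAAT box. The last is GGGCGG, the GC box, and no 2 matches in these windows overlapped.
Col4a1: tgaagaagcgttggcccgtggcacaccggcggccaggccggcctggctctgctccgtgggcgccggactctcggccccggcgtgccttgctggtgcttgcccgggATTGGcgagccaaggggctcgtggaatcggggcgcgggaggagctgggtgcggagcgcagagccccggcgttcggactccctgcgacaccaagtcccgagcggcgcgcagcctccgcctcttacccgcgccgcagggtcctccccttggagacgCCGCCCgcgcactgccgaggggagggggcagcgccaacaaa
Col4a2: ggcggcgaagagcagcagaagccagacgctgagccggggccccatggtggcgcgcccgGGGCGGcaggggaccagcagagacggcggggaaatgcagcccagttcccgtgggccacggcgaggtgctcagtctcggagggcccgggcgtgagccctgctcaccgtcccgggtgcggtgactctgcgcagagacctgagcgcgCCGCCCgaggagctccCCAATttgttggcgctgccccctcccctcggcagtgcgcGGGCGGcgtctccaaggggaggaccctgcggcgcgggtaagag
Col1a2: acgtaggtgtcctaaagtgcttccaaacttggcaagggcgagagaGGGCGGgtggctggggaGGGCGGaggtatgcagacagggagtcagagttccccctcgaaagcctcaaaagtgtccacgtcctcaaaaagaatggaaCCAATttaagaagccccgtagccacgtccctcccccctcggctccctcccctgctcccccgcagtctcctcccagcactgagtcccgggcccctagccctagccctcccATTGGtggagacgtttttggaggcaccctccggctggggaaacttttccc
Col3a1: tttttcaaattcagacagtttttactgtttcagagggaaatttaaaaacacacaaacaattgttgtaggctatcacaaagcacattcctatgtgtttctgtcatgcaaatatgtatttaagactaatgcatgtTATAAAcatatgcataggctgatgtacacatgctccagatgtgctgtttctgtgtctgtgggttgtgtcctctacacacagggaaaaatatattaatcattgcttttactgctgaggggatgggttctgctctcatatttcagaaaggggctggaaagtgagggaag

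Col3a1 held a TATAAA and neither of the other motifs. Col1a2, Col4a1 and Col4a2 each held CCAAT and GGGCGG and no TATAAA. Over 38 RefSeq windows of the 35 collagens that matched by symbol, 5 (13.16%) held TATAAA, 13 (34.21%) held CCAAT and 23 (60.53%) held GGGCGG. The corresponding shares of all 32851 windows were 13.62%, 37.41% and 35.66%. These are letter matches only.

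Before the members are described, some libraries need comment. Depth, estimated from the steps between low FPKM values, was 5.01 and 5.11 times lower in the BDF1 and DBA/2 complexes than in the deepest library. By this estimate 1 FPKM on a 5 kb transcript stands for about 19.9 to 28.3 fragments in the C57BL/6 libraries and for 5.65 and 5.54 in the complexes. All 6 granulosa markers were present in each library. Summed levels of 6 mural markers were 65.4 to 90.4 FPKM in cumulus cells at 2 months, 1939 and 3659 FPKM in the mural libraries, and 89.0, 381 and 997 FPKM in the older cumulus libraries (replicates 1 to 3). In replicate 3 of the last group the sum was mostly Cyp11a1 (773 FPKM), and Lhcgr was at 62.7 FPKM. Nppc, at 16.1 FPKM, was the lowest of its group. Cyp19a1 was at 46.8 FPKM there, between 38.9 and 65.8 FPKM in replicates 1 and 2, and at 324 and 358 FPKM in mural cells. The mural markers thus did not move alike in replicate 3, and the source of these transcripts was not tested. Oocyte markers summed to 0.720 to 838 FPKM in the cumulus libraries and to 2378 and 2267 FPKM in the complexes. As these are bulk samples, fewer cells of a type and less RNA per cell cannot be told apart.

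**Figure D1:**
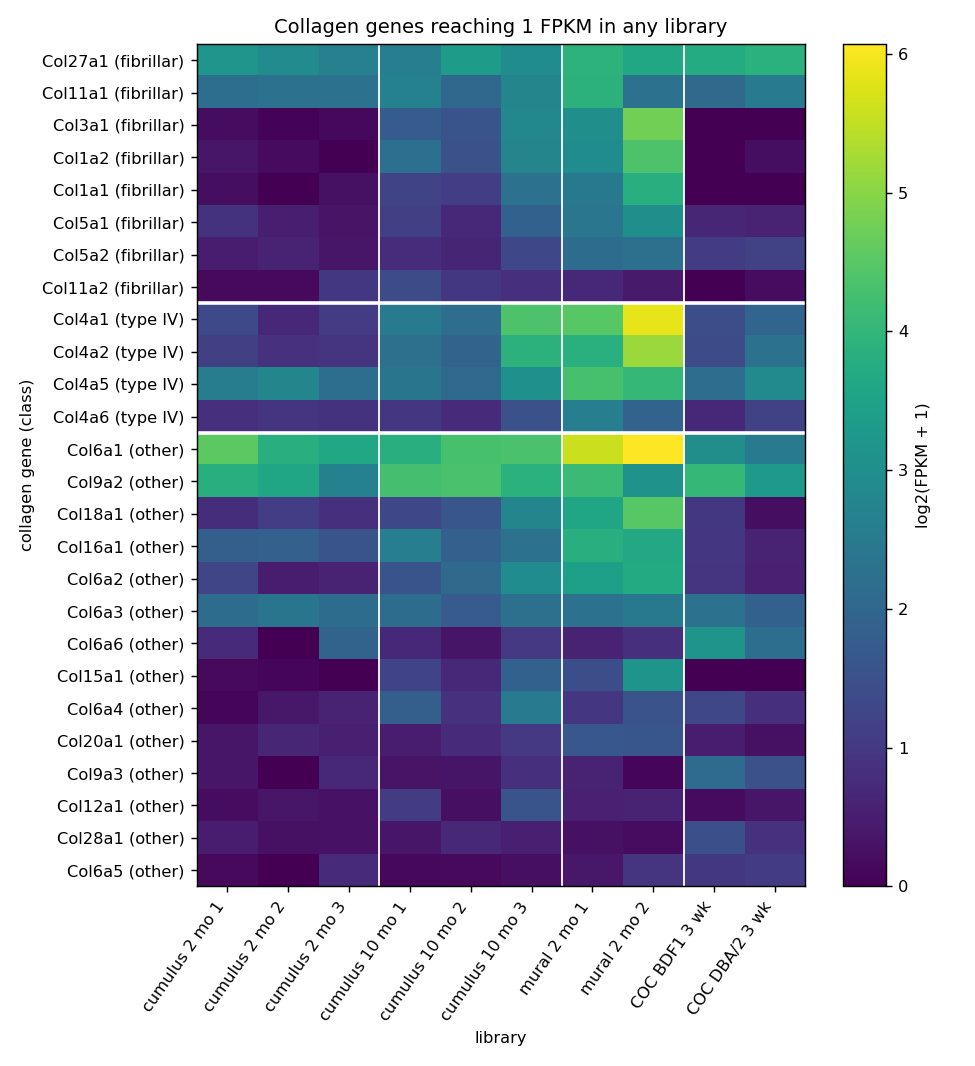
Levels of the 26 collagen genes that reached 1 FPKM in at least 1 library. Rows are genes grouped by class, columns are the 10 libraries, and colour gives log2(FPKM + 1). The mural columns are bright in all 3 classes, and cumulus replicate 3 at 10 months stands between them and the other cumulus columns.

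Collagen transcripts were most abundant in the libraries of mural granulosa cells. Summed over all 43 genes they came to 226 and 339 FPKM in the mural libraries, against 69.1, 54.8 and 48.6 FPKM in cumulus cells at 2 months. Cumulus cells at 10 months gave 88.2, 82.7 and 146 FPKM, and the BDF1 and DBA/2 complexes gave 72.8 and 63.6 FPKM. The mural libraries thus lay above all others, and the 10-month cumulus libraries lay above the 2-month ones.

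The make-up of the sum also differed. In cumulus cells at 2 months type IV chains held 13.1, 16.0 and 14.6% of the collagen FPKM, and in mural cells 26.5 and 32.5%. In 10-month cumulus cells the shares were 16.4, 13.0 and 29.8%, the last being replicate 3. Fibrillar chains held 19.9 to 25.7% in the 8 C57BL/6 libraries, and other types held 41.8 to 67.0%. As each share depends on the other classes, it does not give the direction of a single gene.

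Many collagens were at low levels. Of the 43 members, 17 stayed below 1 FPKM in every library. Between 8 and 10 members reached 1 FPKM in a cumulus library at 2 months, 14 to 22 at 10 months, and 19 and 20 in the mural libraries. Differences were tested for 19 members (7 fibrillar, 4 type IV and 8 other) with a mean of at least 1 FPKM over the 8 C57BL/6 libraries. Since a gene at a low level in cumulus cells could pass this filter only through libraries where it was high, the 19 do not stand for the whole family.

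Mural and cumulus cells of the same age were compared first. On the log2(FPKM + 1) scale, which understates the change of low genes, 15 of the 19 tested collagens rose in mural cells and 0 fell (limma, adjusted p under 0.05). Over all 12412 genes tested, 9.69% were called higher and 11.2% lower in mural cells. Of those calls 46.3% were thus higher, a share that became 69.5% with all libraries scaled to equal FPKM sums, while the collagens called stayed at 15. For 16 of the 19 both mural libraries lay above all 3 cumulus libraries, beside 25.6% of all genes. Of these 16, 11 had a cumulus mean below 1 FPKM. Of the 15, 10 had a cumulus mean below 1 FPKM, and among the 8 tested members above that level 5 rose. The median log2 difference was 2.12 for the fibrillar, 2.59 for the type IV and 1.91 for the other tested members, beside -0.08 for all genes tested. The cumulus mean was below 1 FPKM for 5 of 7 fibrillar, 2 of 4 type IV and 4 of 8 other tested members. The counts and medians are therefore partly set by the filter. The calls were sensitive to leaving out a mural library. This leaves 1 in the group, which is then assumed to vary like the other groups. The smallest whole-table count of the fits with 1 library left out also came without a mural library. All 15 log2 differences stayed positive in both cases. That of Col4a1 was 4.81 without replicate 1 and 3.47 without replicate 2, and that of Col16a1 was 1.90 and 2.04.

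**Figure D2:**
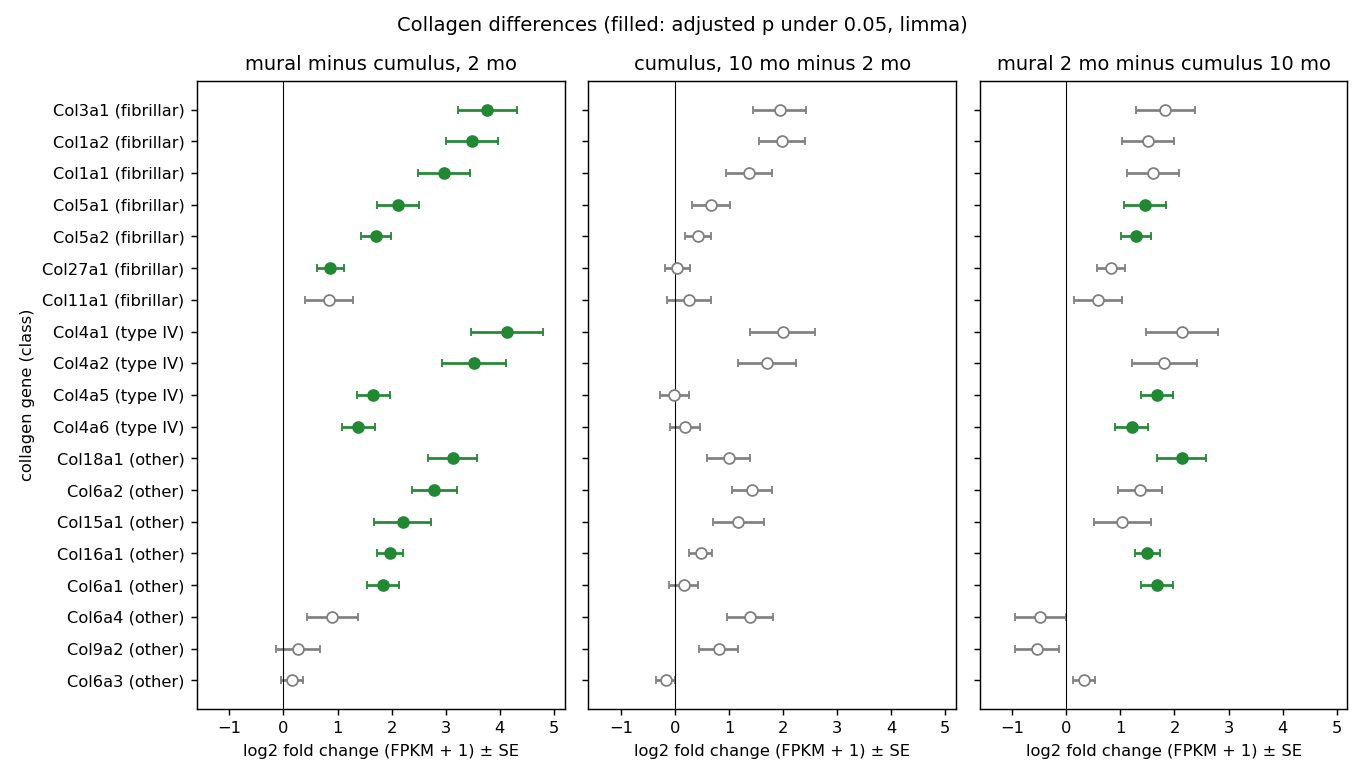
Log2 fold change with its standard error, on the log2(FPKM + 1) scale, for the 19 tested collagens in the 3 comparisons of C57BL/6 groups; filled points passed limma's adjusted p of 0.05. In the comparison of mural with cumulus cells at 2 months 15 points are filled, in the comparison of ages 0, and against 10-month cumulus cells 7.

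Among the fibrillar genes, the chains of the main interstitial collagens differed most. Col1a1, a chain of type I collagen, was at 4.51 and 13.1 FPKM in the mural libraries and at 0.176, 0 and 0.213 FPKM in cumulus cells at 2 months. Its partner chain Col1a2 was at 6.75 and 19.8 FPKM against 0.280, 0.126 and 0 FPKM. Col3a1, which encodes type III collagen, was at 7.09 and 26.3 FPKM against 0.147, 0.0386 and 0.0891 FPKM. In each case both mural libraries were far above the cumulus libraries, and mural replicate 2 was the higher. The log2 fold changes were 2.97 ± 0.48 (SE) for Col1a1 (limma adjusted p = 0.00804), 3.49 ± 0.48 for Col1a2 (adjusted p = 0.00584) and 3.77 ± 0.55 for Col3a1 (adjusted p = 0.00625). The ratio of Col1a1 to Col1a2 was 0.668 and 0.662 in the mural libraries although their levels differed. The cumulus values at 2 months rest on few fragments.

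Type V chains, which are built into type I fibrils, showed smaller differences. Col5a1 was at 4.19 and 7.08 FPKM in mural cells and at 0.842, 0.429 and 0.253 FPKM in cumulus cells (log2 fold change 2.12 ± 0.39, limma adjusted p = 0.0115). Col5a2 was at 3.45 and 3.71 FPKM against 0.400, 0.485 and 0.298 FPKM (1.72 ± 0.28, adjusted p = 0.00800). The mural libraries were close to each other for Col5a2 and the groups did not overlap for either gene.

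The other fibrillar members were already present in cumulus cells. Col27a1, which encodes type XXVII collagen, was at 14.2 and 11.5 FPKM in mural cells and at 7.99, 6.58 and 5.29 FPKM in cumulus cells. Its log2 fold change of 0.87 ± 0.25 passed narrowly (limma adjusted p = 0.0480) and did not pass under 9 of 19 settings, among them the leaving out of either mural library. Col11a1, a type XI chain, was at 14.0 FPKM in mural replicate 1 but at 3.79 FPKM in replicate 2, within the cumulus values of 3.60, 3.78 and 3.83 FPKM. It was not called (0.84 ± 0.45, adjusted p = 0.218).

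All 4 tested type IV genes rose in mural cells. Col4a1 was at 21.6 and 56.1 FPKM in the mural libraries and at 1.54, 0.614 and 1.07 FPKM in cumulus cells at 2 months, a log2 fold change of 4.14 ± 0.67 (limma adjusted p = 0.00800). Its head-to-head neighbour Col4a2, whose chain joins that of Col4a1 in the common type IV network, was at 13.4 and 35.0 FPKM against 1.20, 0.832 and 0.921 FPKM (3.52 ± 0.60, adjusted p = 0.00897). The FPKM ratio of Col4a1 to Col4a2 was 1.61 and 1.60 in the mural libraries and 1.28, 0.738 and 1.16 in the cumulus libraries. Where strand was not used in counting, fragments from the shared start region cannot be assigned to one gene of the pair.

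The X-linked type IV pair had another pattern. Col4a5 was at 18.6 and 15.5 FPKM in mural cells, and it was the most abundant type IV chain in cumulus cells at 2 months with 4.86, 5.90 and 3.57 FPKM (log2 fold change 1.66 ± 0.30, limma adjusted p = 0.0110). Col4a6 was at 5.09 and 2.84 FPKM against 0.796, 0.900 and 0.865 FPKM (1.39 ± 0.31, adjusted p = 0.0199). For both genes mural replicate 1 was the higher library, in contrast to Col4a1 and Col4a2. Col4a3 and Col4a4, the pair on chromosome 1, stayed at or below 0.418 and 0.840 FPKM and were not tested.

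Type VI collagen is assembled from 3 different chains, whose transcripts did not move alike. Col6a1 was the most abundant collagen transcript in the mural libraries, at 47.1 and 66.2 FPKM, with 22.1, 12.9 and 11.5 FPKM in cumulus cells at 2 months (log2 fold change 1.84 ± 0.30, limma adjusted p = 0.00833). Col6a2 was at 9.84 and 12.1 FPKM against 1.40, 0.411 and 0.497 FPKM (2.79 ± 0.41, adjusted p = 0.00652). Col6a3 was at 3.90 and 4.52 FPKM in mural cells and at 3.45, 4.12 and 3.41 FPKM in cumulus cells, and was not called (0.16 ± 0.20, adjusted p = 0.602). The ratio of Col6a1 to Col6a3 was therefore 12.1 and 14.6 in the mural libraries and 3.13 to 6.42 in cumulus cells at 2 months, and the ratio of Col6a1 to its neighbour Col6a2 was 4.79 and 5.49 against 15.8 to 31.4. Col6a4, an additional type VI chain, was not called (0.90 ± 0.47, adjusted p = 0.209).

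The collagens that sit beside basement membranes rose in mural cells. Col18a1, whose C-terminal fragment is endostatin, was at 11.1 and 21.4 FPKM against 0.734, 1.16 and 0.790 FPKM in cumulus cells (log2 fold change 3.13 ± 0.45, limma adjusted p = 0.00616). Col15a1, the related type XV gene, was at 1.74 and 7.79 FPKM against 0.116, 0.0810 and 0 FPKM (2.20 ± 0.53, adjusted p = 0.0247). The spread between mural libraries was wide for Col15a1.

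The 2 tested fibril-associated members differed from each other. Col16a1, of type XVI, was at 13.0 and 11.7 FPKM in mural cells and at 2.60, 2.65 and 2.01 FPKM in cumulus cells, and had the smallest adjusted p of the collagens (log2 fold change 1.97 ± 0.23, limma adjusted p = 0.00429). Col9a2, a type IX chain, was at 16.5 and 7.51 FPKM against 13.1, 10.8 and 5.33 FPKM, and was not called (0.26 ± 0.41, adjusted p = 0.679). It was the only type IX chain above 1 FPKM in the C57BL/6 libraries: Col9a1 was listed above 0 in 1 library only (0.05 FPKM), and Col9a3 reached at most 0.767 FPKM there.

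Among the 24 members not tested, Col20a1, a type XX gene with a mean of 0.949 FPKM, lay just outside the filter, and Col5a2 with 1.39 FPKM just inside. Col20a1 was at 2.14 and 2.09 FPKM in mural cells and at 0.297, 0.572 and 0.440 FPKM in cumulus cells at 2 months. Its difference of 1.12 ± 0.18 passed when the fit was run without a filter (limma adjusted p = 0.0124), where 17 of the 43 members were called higher beside 7.94% of all genes. Col5a3, at 0.228 and 0.739 FPKM in mural cells and listed at 0 in all 3 cumulus libraries, and Col7a1 were also called only in that fit, while Col27a1 was not.

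Col6a6, Col9a3 and Col28a1, also not tested, reached their highest levels in the complexes and are described there. For the remaining members not tested, the highest values in any library were 1.98 FPKM for Col12a1, 1.12 for Col6a5, 1.68 for Col11a2, 0.999 for Col14a1, 0.924 for Col8a1, 0.870 for Col25a1, 0.709 for Col24a1, 0.596 for Col23a1 and 0.588 for Col7a1. They were 0.414 FPKM for Col13a1, 0.310 for Col10a1, 0.270 for Col22a1, 0.240 for Col2a1, 0.198 for Col17a1, 0.197 for Col8a2 and 0.158 for Col19a1. Col2a1, the main cartilage collagen, was thus near 0 in every library.

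Markers of other cell types also differed between mural and cumulus cells at 2 months. The counts below stand beside 9.69% of all genes called higher and 11.2% called lower in mural cells. Endothelial markers (8 genes) summed to 24.9 and 65.7 FPKM in mural cells and to 1.60 to 5.33 FPKM in cumulus cells at 2 months, and 5 of 6 tested rose. Theca and stroma markers (12 genes, no collagen among them) summed to 96.7 and 131 FPKM against 9.34 to 12.1 FPKM, and 4 of 7 tested rose. The largest part of the mural sums was Cyp17a1, at 61.5 and 63.0 FPKM against 1.45, 0.506 and 0.389 FPKM. Of these lists, 2 to 4 endothelial and 3 theca and stroma markers were listed at 0 in each cumulus library at 2 months, and others were present there. Dcn was at 0, 0.13 and 0.10 FPKM in those libraries and at 4.32 and 11.7 FPKM in mural cells. Acta2 was at 2.88, 3.29 and 3.18 FPKM against 14.9 and 25.2 FPKM, and Cdh5 at 2.30, 1.37 and 1.81 FPKM against 5.40 and 11.9 FPKM. Pdgfra had a lower mean in mural cells (0.937 against 1.41 FPKM) and was not called. Immune markers (8 genes) summed to 21.0 and 46.3 FPKM in mural cells against 5.23 to 7.61 FPKM, and 2 of 5 tested rose. Surface epithelium markers (6 genes in the table) summed to 46.2 and 28.8 FPKM against 26.4 to 34.6 FPKM, and 1 of 6 tested, Msln, rose. Krt8 made up most of the cumulus sums, at 30.8, 24.1 and 22.4 FPKM, and was at 17.5 and 11.8 FPKM in mural cells. Both mural libraries lay below all cumulus libraries at 2 months for Krt8 and above them for Krt7, Krt18, Krt19, Msln and Upk3b. The median log2 difference of the 6 was 2.05. Erythroid markers (6 genes) summed to 141 and 82.5 FPKM against 13.3 to 21.4 FPKM, and 1 of 5 tested (Hba-a1) rose and 1 (Alas2) fell. The part of these cells in the collagen differences was not tested.

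The 2 mural libraries differed in their collagens. In mural replicate 2 against replicate 1, 6 of the 19 tested collagens were past 2-fold higher on the log2(FPKM + 1) scale, namely Col1a1, Col1a2, Col3a1, Col4a1, Col4a2 and Col15a1, beside 1.47% of all genes. Col11a1 and Col9a2 were past 2-fold lower, beside 2.3% of all genes. All 6 tested endothelial markers were past 2-fold higher in the same library (median log2 difference 1.24). The same held for 2 of 7 theca and stroma (median 0.71), 2 of 6 mural (median 0.62) and 2 of 5 immune markers (median 0.31). Of 6 granulosa markers 0 were past 2-fold higher (median -0.13). All 7 oocyte, 2 of 3 cumulus and 2 of 5 erythroid markers were past 2-fold lower. With 1 library on each side there is no test.

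**Figure D3:**
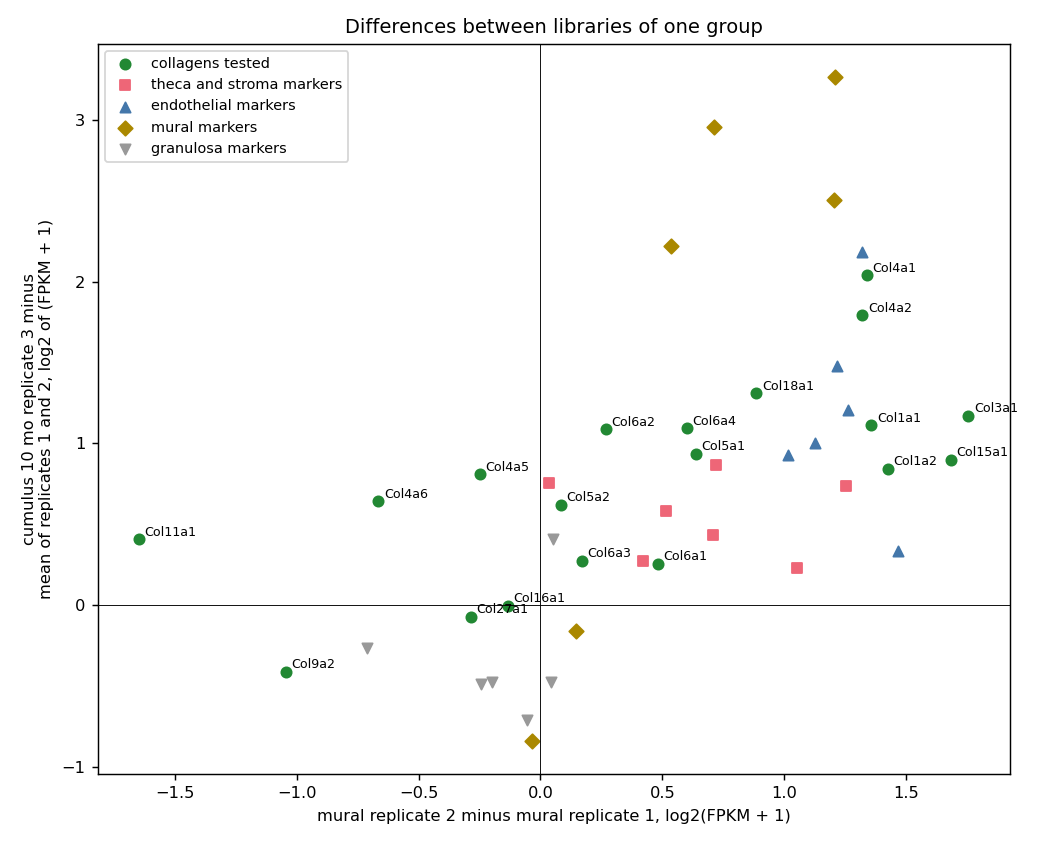
Differences in log2(FPKM + 1) within groups, for tested collagens and cell type markers: mural replicate 2 minus replicate 1 on the x axis, and cumulus replicate 3 at 10 months minus the mean of replicates 1 and 2 on the y axis. Col3a1, Col1a1, Col4a1 and Col4a2 lie at the upper right with 5 of the 6 endothelial markers and the mural markers Cyp11a1 and Star. Col1a2, Col15a1 and the theca and stroma marker Dcn lie slightly lower. Col16a1 and Col27a1 lie near 0 on both axes, and 5 of the 6 granulosa markers lie below 0 on the y axis.

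The comparison of cumulus cells at 10 and 2 months asked whether collagen levels differed with age. No collagen was called in either direction (limma, 0 of 19), as was no other gene (0% of 12412 in each direction). Without adjustment, 9 of the 19 had p under 0.05, all higher at 10 months, beside 7.73% of all genes in that direction. Of these 9, 8 had a 2-month mean below 1 FPKM, so that they entered the test only through libraries where they were high. Among the 8 tested members above that level, 1 (Col4a1) had p under 0.05. For 12 of the 19 every 10-month library lay above every 2-month library, beside 8.93% of all genes, and for 0 the reverse, beside 8.88%. Of those 12, 9 had a 2-month mean below 1 FPKM. The counts over the 19 and their median difference are therefore partly set by the filter. The median log2 difference was 0.81 for the 19 and -0.02 for all genes tested. Without cumulus replicate 3 at 10 months the number of collagens called was also 0.

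Among the larger age differences, none of which passed, were those of type I and III chains. Col1a2 was at 3.67, 1.84 and 5.75 FPKM at 10 months against 0.280, 0.126 and 0 FPKM at 2 months, a log2 difference of 1.99 ± 0.43 (limma adjusted p = 0.197). Col3a1 was at 2.41, 1.97 and 6.19 FPKM (1.94 ± 0.49, adjusted p = 0.219), and Col1a1 at 1.36, 1.13 and 3.85 FPKM (1.37 ± 0.43, adjusted p = 0.259). Each of the older libraries was above each of the younger, and replicate 3 was the highest. Without that replicate the log2 differences were 1.69, 1.54 and 1.00.

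Col4a1 was at 4.67, 3.52 and 19.9 FPKM at 10 months (1.99 ± 0.60, limma adjusted p = 0.249) and Col4a2 at 3.75, 2.83 and 13.9 FPKM (1.71 ± 0.53, adjusted p = 0.258). Replicates 1 and 2 were close to each other, and replicate 3 was several times higher. Without replicate 3 the differences were 1.31 and 1.11. The other type IV pair was near its 2-month level: Col4a5 was at 4.16, 3.24 and 7.23 FPKM (-0.01 ± 0.27, adjusted p = 0.993) and Col4a6 at 0.950, 0.677 and 1.83 FPKM (0.18 ± 0.28, adjusted p = 0.829).

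Of the other classes, Col6a2 was at 1.99, 3.30 and 6.74 FPKM at 10 months (1.43 ± 0.37, limma adjusted p = 0.225) and Col6a4 at 2.57, 0.829 and 4.76 FPKM against 0.0818, 0.315 and 0.484 FPKM (1.39 ± 0.42, adjusted p = 0.256). Col15a1 was at 1.33, 0.604 and 2.67 FPKM (1.17 ± 0.47, adjusted p = 0.333) and Col18a1 at 1.5, 2.07 and 5.90 FPKM (0.99 ± 0.40, adjusted p = 0.334). Col9a2, at 18.3, 18.9 and 13.8 FPKM (0.81 ± 0.36, adjusted p = 0.375), differed from these in that replicate 3 was its lowest 10-month library. Col6a1, at 13.2, 18.6 and 19.2 FPKM, Col6a3, at 3.42, 2.37 and 3.71 FPKM, and Col27a1, at 5.0, 9.17 and 6.70 FPKM, had differences of 0.17, -0.17 and 0.04. Within type VI, the ratio of Col6a1 to Col6a2 was 6.63, 5.65 and 2.85 at 10 months.

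Sums of markers of other cells were also compared between the ages, although 0 of these markers were called. Theca and stroma markers summed to 21.2, 32.3 and 45.3 FPKM at 10 months against 9.34 to 12.1 FPKM at 2 months. Immune markers summed to 21.0, 48.3 and 76.7 FPKM against 5.23 to 7.61 FPKM. Endothelial markers summed to 4.45, 5.88 and 22.0 FPKM against 1.60 to 5.33 FPKM, so that replicate 1 lay within the 2-month range. Dcn was at 2.42, 2.75 and 4.98 FPKM. Surface epithelium markers summed to 57.9, 48.4 and 100.96 FPKM against 26.4 to 34.6 FPKM. Erythroid markers summed to 23.2, 21.9 and 136 FPKM against 13.3 to 21.4 FPKM, with only replicate 3 far above that range. In replicate 3 against the mean of replicates 1 and 2, 7 of the 19 collagens were past 2-fold higher, beside 4.39% of all genes: Col1a1, Col3a1, Col4a1, Col4a2, Col6a2, Col6a4 and Col18a1. So were 4 of 6 endothelial, 4 of 6 mural, 5 of 6 surface epithelium, 3 of 5 erythroid, 2 of 5 immune, 0 of 7 theca and stroma and 0 of 6 granulosa markers. The mural markers Cyp19a1 (-0.16) and Nppc (-0.84) were lower in that replicate. The part of these cells in the age differences was not tested.

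Mural cells at 2 months were also set against cumulus cells at 10 months. This comparison shares its mural libraries with the first and its 10-month libraries with the second, and it differs in both cell type and age. Of the 19 collagens 7 were called higher in mural cells and 0 lower (limma), beside 6.94% and 7.77% of all genes. They were Col16a1 (log2 fold change 1.49 ± 0.23, adjusted p = 0.0122), Col6a1 (1.67 ± 0.30, adjusted p = 0.0172), Col4a5 (1.67 ± 0.30, adjusted p = 0.0174), Col18a1 (2.14 ± 0.45, adjusted p = 0.0256), Col5a2 (1.29 ± 0.28, adjusted p = 0.0264), Col4a6 (1.21 ± 0.31, adjusted p = 0.0407) and Col5a1 (1.45 ± 0.39, adjusted p = 0.0459). Col1a1, Col1a2, Col3a1, Col4a1, Col4a2 and Col6a2 had differences of 1.60, 1.51, 1.83, 2.15, 1.82 and 1.36 with adjusted p of 0.0594 to 0.0768. Col6a4 (-0.48) and Col9a2 (-0.55) were the 2 tested members with a higher mean in the older cumulus cells, and neither was called. Without cumulus replicate 3 at 10 months 13 collagens were called, and without replicate 1 of that group 1. The number of genes called over the whole table also changed with the library left out. The calls were also sensitive to leaving out a mural library, which leaves 1 in that group. The log2 difference of Col4a1 was then 2.8 without mural replicate 1 and 1.5 without mural replicate 2, and that of Col16a1 was 1.43 and 1.56.

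The complexes hold an oocyte and its cumulus cells, and they differ from the cumulus libraries in strain, age, priming and depth, which cannot be told apart. With 1 library per strain there is no test. Genes with a mean of at least 1 FPKM over the 10 libraries were set against the mean of cumulus cells at 2 months. Among collagens these were the 19 tested members and Col6a6, which entered only through its level in the complexes. Of them, 1 was past 2-fold higher in both complexes and 1 past 2-fold lower, beside 9.49% and 2.08% of all such genes. Counts of 1 are too small to set the collagens apart from those shares. The higher one was Col6a6, a type VI chain, at 7.87 FPKM in BDF1 and 3.59 FPKM in DBA/2 complexes against 0.662, 0 and 2.85 FPKM in the cumulus libraries. Both complexes lay above the cumulus range, and the cumulus library with the highest value, replicate 3, also had the highest oocyte marker sum of its group. At 10 months Col6a6 was at 0.605, 0.264 and 1.00 FPKM, with oocyte marker sums of 204, 113 and 264 FPKM. The mural libraries went the other way, with 0.510 and 0.754 FPKM beside sums of 107 and 14.5 FPKM. The source of the Col6a6 transcripts was not tested. The lower one was Col6a1, at 6.98 and 4.53 FPKM against 11.5 to 22.1 FPKM.

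The type IV chains Col4a1, Col4a2 and Col4a5 of the complexes stood nearer to cumulus cells at 2 months than to mural cells. Col4a1 was at 1.74 and 2.92 FPKM and Col4a2 at 1.67 and 3.80 FPKM in BDF1 and DBA/2. Col4a2 was past 2-fold above the cumulus mean in DBA/2 only (log2 ratio 1.27). Col4a5, the most abundant type IV chain in both complexes, was at 3.52 and 6.48 FPKM against 3.57 to 5.90 FPKM in the cumulus libraries. Col27a1, at 12.4 and 13.7 FPKM, differed from these, with values above the cumulus maximum of 7.99 FPKM and between those of the 2 mural libraries. Col1a1, Col3a1 and Col15a1 were listed at 0 in both complexes, where 1 FPKM stands for fewer fragments than in the other libraries. Col16a1 was lower in both (0.958 and 0.488 FPKM against 2.01 to 2.65 FPKM), past 2-fold in DBA/2 only. Below the level of that filter, Col9a3 was at 3.32 and 1.85 FPKM and Col28a1 at 1.78 and 0.809 FPKM, both above the cumulus libraries at 2 months, in which the highest values were 0.603 and 0.392 FPKM.

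Genes that act on collagen chains showed a mixed picture. Of 36 listed genes of collagen folding, modification and processing, 29 were tested. In mural against cumulus cells at 2 months 9 rose and 1 fell, beside 9.69% and 11.2% of all genes. The median log2 difference was 0.34, beside -0.08 for all genes tested. Pcolce, which enhances the cleavage of procollagen ends, was at 75.3 and 152 FPKM in mural cells and at 7.09, 5.43 and 4.89 FPKM in cumulus cells (4.0 ± 0.53, limma adjusted p = 0.00576). Sparc, a collagen-binding matrix protein, was at 183 and 437 FPKM against 42.8, 44.0 and 33.8 FPKM (2.79 ± 0.40, adjusted p = 0.00616). Leprel2, a prolyl 3-hydroxylase, was at 11.9 and 13.7 FPKM against 4.03, 3.67 and 2.94 FPKM (1.61 ± 0.17, adjusted p = 0.00337), and Bmp1, the protease that removes the C-terminal propeptide, was at 38.2 and 38.0 FPKM against 21.8, 16.8 and 14.2 FPKM (1.09 ± 0.19, adjusted p = 0.00974). Both libraries of mural cells were above all 3 cumulus libraries for each.

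The general folding and hydroxylating enzymes were high in cumulus cells too. Serpinh1, the collagen chaperone Hsp47, was at 552 and 524 FPKM in mural cells and at 397, 345 and 274 FPKM in cumulus cells (0.68 ± 0.22, limma adjusted p = 0.0633). P4ha2, a catalytic subunit of prolyl 4-hydroxylase, was the one that fell, at 13.5 and 14.6 FPKM against 35.5, 34.8 and 30.7 FPKM (-1.21 ± 0.33, adjusted p = 0.0374). P4ha1 (-0.36), the lysyl hydroxylases Plod1 (0.61) and Plod2 (0.10), and the crosslinking enzyme Lox (-0.94) were not called, with adjusted p of 0.0587 to 0.696.

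Of 17 laminins and other basement membrane partners of type IV collagen, 11 were tested and 6 rose in mural cells, beside 9.69% of all genes. The median log2 difference of the 11 was 1.09. Lama4, a laminin chain, was at 18.3 and 23.6 FPKM against 3.24, 3.72 and 2.97 FPKM (2.34 ± 0.32, limma adjusted p = 0.00577). Lamb2 was at 55.4 and 49.9 FPKM against 20.9, 17.8 and 14.1 FPKM (1.54 ± 0.19, adjusted p = 0.00469). Lamc1 (1.22), Lamc3 (1.51), the perlecan gene Hspg2 (1.09, adjusted p = 0.0486) and Agrn (0.67, adjusted p = 0.0491) also rose, whereas the nidogen genes Nid1 (1.23, adjusted p = 0.0764) and Nid2 (0.63, adjusted p = 0.116) did not pass.

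Of 10 collagen receptor genes 5 were tested, and only Itgb1, the shared integrin beta chain, rose, beside 9.69% of all genes. It went from 62.1, 77.0 and 64.0 FPKM in cumulus cells at 2 months to 115 and 131 FPKM in mural cells (0.86 ± 0.22, limma adjusted p = 0.0295). The receptors Itga2 (-0.72), Itga1 (-0.36) and Ddr1 (-0.31) were not called, and Ddr2 and Itga11 were below the filter. Between the ages 0 genes of the 3 lists were called, as for the whole table. The smallest p of each list belonged to Sparc, to Mrc2 (an endocytic collagen receptor) and to Lamb2, with log2 differences of 1.15, 0.85 and 0.54 and limma adjusted p of 0.258, 0.229 and 0.260. Against 10-month cumulus cells 9 processing genes were higher and 1 lower (Lox, -1.29, limma adjusted p = 0.0396). There 0 receptors were called, and 3 partners were higher, namely Lama4, Lamb2 and Agrn. The shares of all genes were 6.94% higher and 7.77% lower.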

How the data were processed

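RNA-seq of 10 libraries was used. The authors deposited FPKM values for all of them in a single table. Per the submitters' processing notes, the build was mm9 and the tools were Cufflinks 2.1.0 and TopHat2 2.1.0. The sources used here name no gene annotation and do not state whether strand was used in counting. Members and gene lists were chosen with earlier results of these data known. Relative depth was read from the modal ratio of low FPKM values between libraries. It was scaled to fragments with 127 genes of 1 transcript (GENCODE M21 lengths), which gave the reference library a median of 24.8 fragments (quartiles 23.7 and 25.8) per FPKM on a 5 kb transcript. As these are estimates, no intervals for counting error are given.

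Tests used log2(FPKM + 1). A mean of at least 1 FPKM across the 8 C57BL/6 libraries was required, which left 12412 genes. One model for the 3 groups was fitted by limma 3.58.1 (R 4.3.3) with its trend on mean level, leaving 5 residual degrees of freedom. Tests were two-sided with Benjamini-Hochberg adjustment over all genes tested and a threshold of 0.05. The fit was tested on simulated data with normally distributed scatter and with changes planted only in genes of higher mean level. That test therefore does not bear on collagens with low levels in cumulus cells. Members that passed a comparison or reached a mean of 5 FPKM in a group are given with their values in each library, and other tested members by single values. From each other list up to 4 genes with the smallest p are named, plus chaperones, hydroxylases, receptors and nidogens. Alternatives changed the pseudocount, the filter, the scaling, the groups in the fit, the trend, the library weights, a replicate block and each library in turn.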

Additional observations from a re-analysis of the deposited data

How the results depend on the processing

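Leaving out 1 library gave 0 to 15 collagens called for mural against cumulus cells at 2 months (15 with all libraries), 0 to 0 between the ages and 0 to 13 against 10-month cumulus cells (7 with all). Over all genes the ranges were 99 to 3253 (2599 with all), 0 to 245 (0 with all) and 24 to 2636 (1826 with all), the 245 being reached without cumulus replicate 2 at 10 months and the 99 and the 24 without a mural library. With a filter at a mean of 5 FPKM, which tests fewer genes, 8 collagens were called at 2 months and 4 against 10-month cells. Library weights gave 5425, 69 and 3793 genes over the whole table and 14 collagens against 10-month cells. There, a pseudocount of 0.1 gave 4 collagens, and a fit of only the 2 groups gave 2 collagens and 460 genes. In the complexes a pseudocount of 0.1 gave 3 collagens higher and 3 lower, a pseudocount of 5 gave 0 and 0, median centring gave 0 higher, and leaving out a cumulus library gave 0 to 1. The cause of these shifts was not tested.

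Same-numbered libraries had correlations of -0.05 to 0.21 in their deviations from group means, so the numbers were not taken to pair them. With a replicate block 14, 0 and 8 collagens were called (3361, 0 and 2428 genes).

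Signs turned only for values that were not called. With a library left out, Col9a2 at 2 months ranged from -0.26 to 0.78. Between the ages, Col4a5 ranged from -0.28 to 0.19, Col4a6 from -0.035 to 0.34, Col6a1 from -0.0090 to 0.44 and Col27a1 from -0.15 to 0.23. Against 10-month cells Col11a1 ranged from -0.24 to 1.41. Between the ages Col4a5 also went to 0.0013 (pseudocount 5) and 0.044 (equal FPKM sums), Col4a6 to -0.10 (quantile normalization) and Col27a1 to -0.10 (library weights). Equal FPKM sums moved the median log2 difference of all genes from -0.08 to 0.14 at 2 months, with 69.5 instead of 46.3% of calls higher, and from -0.06 to 0.11 against 10-month cells, with 69.2 instead of 47.2%. In the complexes the lower depth limits what a value of 0 can show.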
